A study of Mus musculus with 9 samples.

Results

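Transcripts of 43 mitosis genes were examined in B cells sorted from germinal centers (GCs) of mice with Foxo1 alleles open to deletion. The genes were listed by name for their roles in cell division: cyclins and kinases of mitotic entry, parts of the checkpoint, the centromere, the spindle and the machinery that parts the daughter cells. The naming of the genes uses no measured value, but the list was drawn up with earlier results of these data known. Each was read from its brightest probe set with a single gene symbol on an Affymetrix mouse expression array. Of the 43 genes, 42 were measured and tested among 10331 genes in all, and Ccnb1 was not analysed here. KO mice were FOXO1f/f with Cg1-Cre, HET mice were FOXO1f/+ with Cg1-Cre, and WT mice were FOXO1+/+ with Cg1-Cre, so that the recombinase was present in every group. Each group had 3 arrays. The labels tie an array to 1 animal, although the design text mentions pooled spleen cells. Mice aged 10 weeks received sheep red blood cells on days 0 and 5, and GC B cells (B220hi, PNAhi, CD95hi) were sorted from spleens on day 12. Cg1-Cre is known to be switched on as B cells enter the GC, and cells that had not recombined both alleles could remain in a KO sort.

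GC B cells, found in the follicles of lymphoid organs during an immune response, are among the fastest dividing cells of the body. Mitosis begins when cyclin A and cyclin B bind CDK1, which CDC25 phosphatases switch on, and Aurora and Polo-like kinases then build the spindle. The spindle checkpoint holds the anaphase-promoting complex until every chromosome is attached, and CDC20 and UBE2C then direct the destruction of cyclins. Most of these genes are transcribed late in the cell cycle through promoters with a cell cycle genes homology region (CHR), bound by the DREAM and MYBL2-FOXM1 complexes, and CCAAT boxes, bound by NF-Y. The product of Foxo1 is a transcription factor of the forkhead family, which leaves the nucleus when AKT phosphorylates it.

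The deposited MAS5 signal of Foxo1, from its brightest probe set, was 983, 1392 and 727 on the 3 KO arrays, 3633, 3581 and 3479 on the HET arrays and 5432, 5300 and 5616 on the WT arrays. All KO arrays were thus below all HET arrays, and all HET arrays below all WT arrays. Correlations of log2 signals lay between 0.984 and 0.990 within a genotype and between 0.974 and 0.990 across genotypes. As a sign of RNA quality, Actb control probes at the 3′ end exceeded those at the 5′ end by a log2 difference of 1.13 to 1.26 in KO, 1.10 to 1.23 in HET and 1.09 to 1.24 in WT. Of 10 listed GC B cell markers 8 were on the array, among them Bcl6, Fas, Ms4a1 and Cd79a, and all 8 were bright enough to be tested. Their summed signal was 52106 to 53903 in KO, 54201 to 55629 in HET and 52573 to 58179 in WT. Within this list Fas rose and Gcsam, also a dark zone marker, fell in KO vs WT. None of these values contradicted a genotype label.

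KO vs WT asks whether GC B cells that lost FOXO1 carried other levels of mitosis transcripts. In KO cells 9 of 42 mitosis genes fell and 0 rose in limma at a Benjamini-Hochberg adjusted p under 0.05, while over all tested genes 5.83% fell and 6.1% rose (11.9% in either direction). At an unadjusted p under 0.05 in limma there were 18, all with negative changes, where 11.9% of all tested genes had a negative change at that threshold and 25.7% a change in either direction. Since 41 of the 42 genes had a mean signal of 500 or more, the share among genes that bright is also given: 7.22% of 6401 fell. The falls were small: the genes called kept between 72.2% (Ccna2) and 87.0% (Ube2c) of the WT mean. By role, 5 of 9 genes of mitotic entry fell, 2 of 7 of the checkpoint and exit, 2 of 6 of the centromere and kinetochore, and 0 of 20 in the other roles; no test between roles was made. In bulk RNA, fewer cells in mitosis and less transcript per cell cannot be told apart.

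Negative changes extended to most genes that did not pass. The log2 change was negative for 39 of 42 genes, against 47.7% of all tested genes and 52.7% of those with a signal of 500 or more. Their median change was -0.12, beside 0.01 over all tested genes and -0.0098 over the bright ones. Every KO array lay below every WT array for 18 of the 42 genes (13.5% of all tested genes, 16.6% of bright ones), and every KO array above every WT array for 0 (16.2% of all tested genes). Relative to the WT mean, the median over the 42 genes stood at -0.11, -0.14 and -0.097 on the 3 KO arrays. It stood at -0.031, 0.013 and -0.022 on the HET arrays and at -0.020, -0.026 and 0.049 on the WT arrays. The KO arrays were therefore the lowest of the 9, and HET and WT arrays overlapped.

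**Figure D1:**
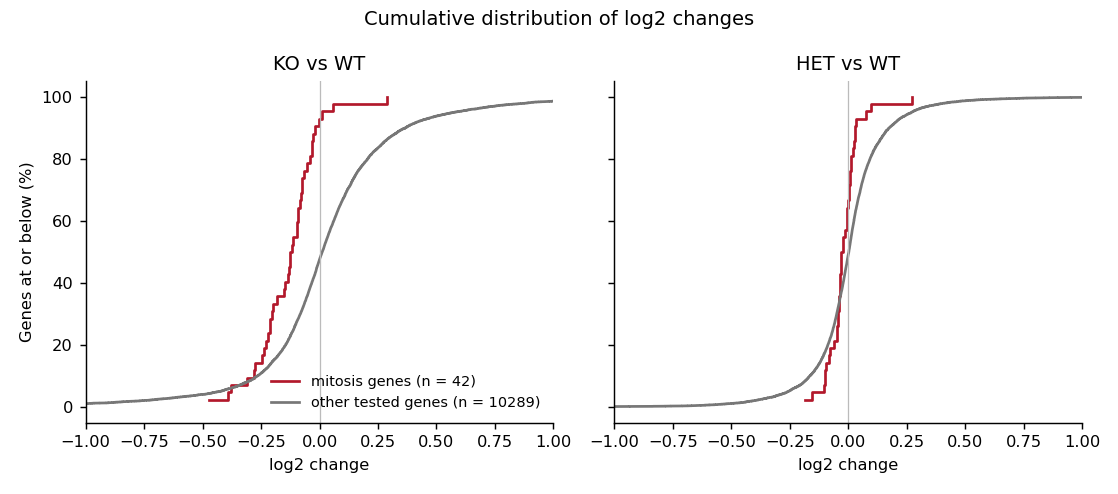
Cumulative share of genes (vertical axis, %) at or below a log2 change (horizontal axis) for 42 mitosis genes (red) and 10289 other tested genes (grey), for KO vs WT at left and HET vs WT at right. At left the red curve holds 39 of 42 genes below a change of 0, with a median of -0.12, and at right its median is -0.027.

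The promoters of the mitosis genes shared the letters known for late cell cycle genes. RefSeq windows of GRCm38.p6, from 250 bases before to 50 after the gene start, existed for 36 of the 42 genes and 8453 of the 10331 tested genes. Shares are per gene, and a gene counted when any of its windows held the match. The CHR, searched as TTTGAA on both strands, occurred in 26 of 36 genes (72.2%), against 14.2% of tested genes and 20.2% of all 27025 genes with a window. CCAAT, on both strands, occurred in 27 (75.0%), against 43.3% of tested genes and 41.1% of all genes with a window. Both occurred in 22 (61.1%), against 5.94% of tested genes. In 84 genes of the other mitosis lists that had a window the CHR occurred in 46.4%, and in 29 of the G1/S list in 10.3%. The forkhead motif TGTTTAC, on both strands, occurred in 2 genes, Nuf2 and Ect2 (5.56%, against 3.21% of tested genes and 4.05% of all genes with a window). The CHR matches clustered at the gene start, with a median position of -1.5 bases and 79.4% of them from -100 onward, against -138 and 35.4% in other tested genes. Of 40 neighbouring pairs of CCAAT matches, 25.0% were spaced by 31 to 34 bases, against 9.83% in other tested genes. Among the 36 windows, 2 pairs of matches overlapped. Of the 8 called genes with a window, 4 held TTTGAA and 6 CCAAT, against 22 and 21 of the 28 that were not called in KO vs WT. Other spellings of the CHR were not searched, so a window without a match is not shown to lack one.

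**Figure D2:**
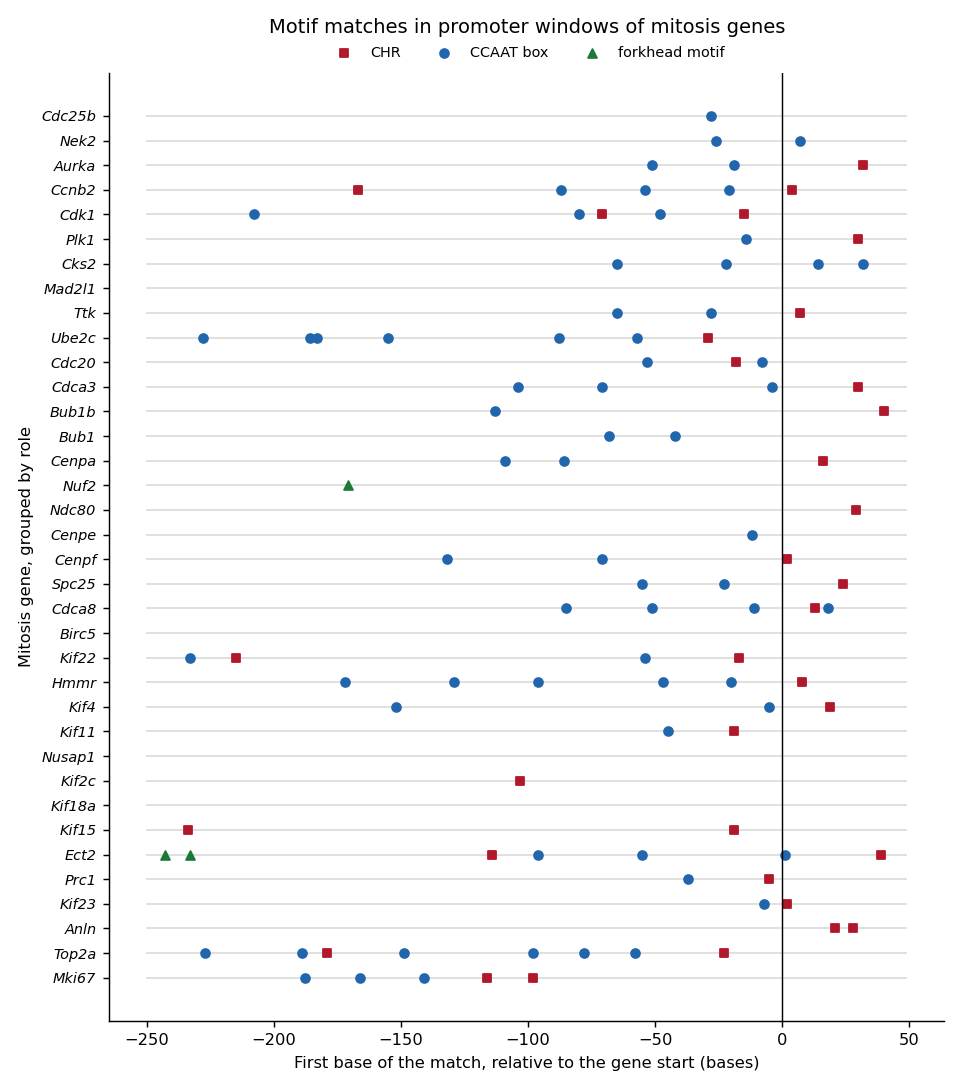
Positions of CHR (red squares), CCAAT box (blue circles) and forkhead motif (green triangles) matches in the promoter windows of 36 mitosis genes (rows, grouped by role), in bases from the gene start (horizontal axis). CHR matches lie near the start, with a median position of -1.5, and CCAAT matches mostly before it, with a median of -58.0.

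Windows are shown for the 6 genes with the smallest adjusted p in KO vs WT that had one, because they are among the 9 that fell. They are Cdc25b (chr2:131186698-131186997, forward strand), Cenpa (chr5:30666636-30666935, forward strand), Nuf2 (chr1:169531415-169531714, reverse strand), Ccnb2 (chr9:70421505-70421804, reverse strand), Aurka (chr2:172370521-172370820, reverse strand) and Nek2 (chr1:191821223-191821522, forward strand) in GRCm38.p6, each written 5′ to 3′ along the gene. Capitals mark CHR, CCAAT and forkhead matches on either strand. Ccnb2 and Aurka show the array of CCAAT boxes followed by a CHR, Nek2 a CCAAT pair with no CHR match, and Nuf2 only the forkhead letters.
Cdc25b: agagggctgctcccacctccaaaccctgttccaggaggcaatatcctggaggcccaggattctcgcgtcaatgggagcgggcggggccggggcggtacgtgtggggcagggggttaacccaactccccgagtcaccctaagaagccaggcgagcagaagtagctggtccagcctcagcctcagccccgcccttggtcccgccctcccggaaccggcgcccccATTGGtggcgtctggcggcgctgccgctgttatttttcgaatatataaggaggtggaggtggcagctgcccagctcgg
Cenpa: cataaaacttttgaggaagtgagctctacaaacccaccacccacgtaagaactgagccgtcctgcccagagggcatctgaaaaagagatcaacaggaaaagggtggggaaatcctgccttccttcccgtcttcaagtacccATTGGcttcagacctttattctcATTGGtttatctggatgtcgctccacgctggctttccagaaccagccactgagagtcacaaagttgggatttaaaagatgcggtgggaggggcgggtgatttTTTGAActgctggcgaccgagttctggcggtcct
Nuf2: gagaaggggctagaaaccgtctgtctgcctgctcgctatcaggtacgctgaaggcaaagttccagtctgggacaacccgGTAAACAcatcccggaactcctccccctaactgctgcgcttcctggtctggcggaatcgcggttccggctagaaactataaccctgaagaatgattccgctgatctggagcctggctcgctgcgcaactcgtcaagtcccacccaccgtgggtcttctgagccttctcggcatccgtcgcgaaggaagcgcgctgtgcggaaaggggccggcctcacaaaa
Ccnb2: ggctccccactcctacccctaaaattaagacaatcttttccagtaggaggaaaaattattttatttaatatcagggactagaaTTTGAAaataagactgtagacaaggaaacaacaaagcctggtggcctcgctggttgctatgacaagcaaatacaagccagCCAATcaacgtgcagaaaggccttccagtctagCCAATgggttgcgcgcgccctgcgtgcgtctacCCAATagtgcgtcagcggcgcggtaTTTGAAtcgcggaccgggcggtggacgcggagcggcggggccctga
Aurka: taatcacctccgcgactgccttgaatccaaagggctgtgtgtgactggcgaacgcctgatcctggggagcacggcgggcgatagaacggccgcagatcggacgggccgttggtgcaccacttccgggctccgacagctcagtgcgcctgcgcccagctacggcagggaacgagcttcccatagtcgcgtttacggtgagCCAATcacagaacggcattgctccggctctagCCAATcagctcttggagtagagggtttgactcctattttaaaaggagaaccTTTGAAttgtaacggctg
Nek2: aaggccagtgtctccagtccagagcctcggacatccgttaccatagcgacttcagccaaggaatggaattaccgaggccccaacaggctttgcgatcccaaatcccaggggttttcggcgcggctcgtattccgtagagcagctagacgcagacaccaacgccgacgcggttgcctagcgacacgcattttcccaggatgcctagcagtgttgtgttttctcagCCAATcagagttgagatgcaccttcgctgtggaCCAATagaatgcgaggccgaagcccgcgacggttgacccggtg

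In Ccnb2 the CCAAT matches began at -87, -54 and -21 bases and the CHR nearest the start at 4. In Aurka they began at -51 and -19, with the CHR at 32, and in Cenpa at -109 and -86, with the CHR at 16. A match is a description of letters and not a site of binding in these cells.

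Among genes of mitotic entry, Ccna2 changed most. It encodes cyclin A2, the partner of CDK1 and CDK2 that is needed to leave S phase and enter mitosis. Its signal was 4151, 4416 and 4521 on the KO arrays, 6167, 5759 and 5659 on the HET arrays and 6078, 5823 and 6231 on the WT arrays. The KO arrays were clearly apart from the other 6, which overlapped. The log2 change was -0.47 (SE 0.055, adjusted p = 1.38e-04, limma). Cdc25b encodes a phosphatase that removes the inhibitory phosphates of CDK1 and starts mitotic entry at the centrosome. Its signal was 4527, 4818 and 4637 in KO, 6170, 5968 and 6437 in HET and 6023, 5793 and 6375 in WT. Again no KO array reached the lowest HET or WT array, and the change was -0.38 (SE 0.054, limma adjusted p = 5.98e-04). Both remained called under every alternative that could test them, the omission of each of the 9 arrays included, with the limma adjusted p reaching 0.0044 for Ccna2 and 0.0100 for Cdc25b.

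The other called genes of this role fell less. Nek2, a centrosome kinase that splits the centrosomes before spindle assembly, read 1305, 1103 and 1160 in KO, 1503, 1574 and 1381 in HET and 1429, 1489 and 1492 in WT, a change of -0.31 (SE 0.081, limma adjusted p = 0.0268). Aurka, which encodes the Aurora A kinase of spindle poles, read 995, 992 and 1055 in KO, 1248, 1156 and 1206 in HET and 1172, 1230 and 1298 in WT, a change of -0.28 (SE 0.073, limma adjusted p = 0.0262). Ccnb2, the gene of cyclin B2, read 3929, 3596 and 3871 in KO, 4299, 4404 and 4247 in HET and 4191, 4494 and 4657 in WT, a change of -0.23 (SE 0.057, limma adjusted p = 0.0224). In each of these genes the KO arrays lay below all other arrays. Without the trend in eBayes the calls of Nek2 and Ccnb2 were lost (limma adjusted p of 0.0524 and 0.0689), and that of Nek2 also with the mean of its probe sets (0.0519). The catalytic partner itself, Cdk1, read 4126, 4406 and 4641 in KO, 5344, 4551 and 5010 in HET and 5059, 4816 and 5371 in WT. Its KO and WT arrays did not overlap, but it did not pass (-0.21, SE 0.070, limma adjusted p = 0.0697). Plk1, the Polo-like kinase that acts at centrosomes and kinetochores, also did not pass: it read 1115, 1047 and 1204 in KO, 1296, 1268 and 1279 in HET and 1297, 1371 and 1198 in WT (-0.20, SE 0.079, limma adjusted p = 0.128). Cdc25c, a second CDC25 phosphatase of mitosis, had 1607, 1437 and 1479 in KO, 1657, 1985 and 1529 in HET and 1737, 1825 and 1703 in WT (-0.22, SE 0.092, limma adjusted p = 0.149). Cks2, a small CDK-binding protein, had a change of -0.15 (limma adjusted p = 0.132), so all 9 measured genes of this role had negative changes.

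**Figure D3:**
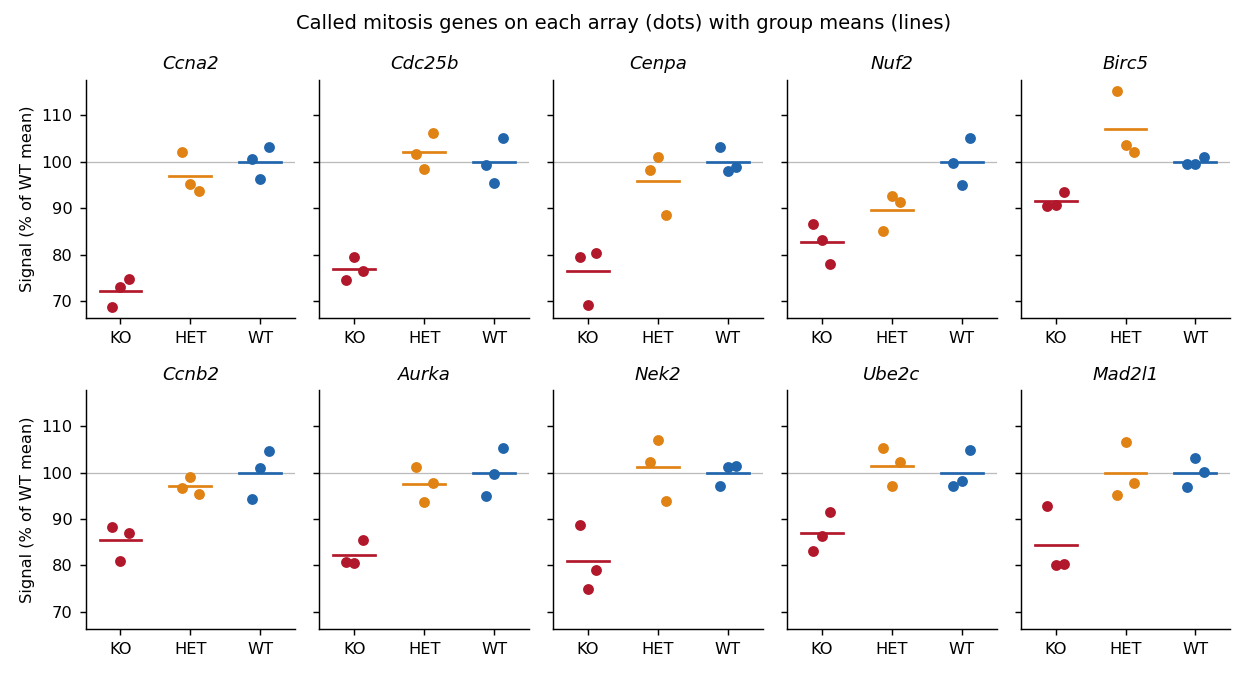
Signal on each array as a percentage of the gene's WT mean (vertical axis) for the 10 mitosis genes called in KO vs WT or KO vs HET, with KO, HET and WT along the horizontal axis; dots are arrays and lines are group means (n = 3). Ccna2 KO arrays average 72.2% of WT and its HET arrays 97.0%.

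Of the checkpoint and exit genes, Mad2l1 and Ube2c fell. Mad2l1 encodes MAD2, which binds CDC20 until all kinetochores are attached, and read 3748, 3231 and 3242 in KO, 3843, 4300 and 3944 in HET and 3914, 4160 and 4038 in WT (-0.25, SE 0.069, limma adjusted p = 0.0354). KO replicate 1 stood close to the HET and WT arrays and the other KO arrays well below them. The gene Ube2c, for the ubiquitin-conjugating enzyme of the anaphase-promoting complex, read 4364, 4535 and 4801 in KO, 5520, 5095 and 5363 in HET and 5096, 5149 and 5500 in WT (-0.20, SE 0.056, limma adjusted p = 0.0364). No KO array reached the lowest HET or WT array. Quantile normalization, dropping the filter on dim probe sets and eBayes without trend each ended both calls, and a fit of KO and WT alone that of Ube2c (limma adjusted p from 0.0569 to 0.0997). Ttk, Cdca3, Cdc20, Bub1b and Bub1, which encode checkpoint kinases and activators or adaptors of mitotic ubiquitin ligases, did not pass, with changes between -0.21 (Ttk) and -0.065 (Bub1). Their further probe sets above the filter gave 0.18 for Ttk, 0.097 for Bub1, and -0.057 and 0.12 for Bub1b. The direction of these genes thus depends on the probe set, that of Ttk between probe sets of like signal. Those of Cdc20 gave -0.25 and -0.29. Cdc20 was called lower with the mean of its probe sets (-0.23, limma adjusted p = 0.0349) and without probe sets of shared suffix (-0.25, limma adjusted p = 0.0335).

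At the centromere, Cenpa and Nuf2 fell. Cenpa, the histone H3 variant that marks centromeres, read 2740, 2381 and 2767 in KO, 3381, 3481 and 3047 in HET and 3550, 3371 and 3404 in WT (-0.39, SE 0.072, limma adjusted p = 0.0038). That call came from its brightest probe set alone. The 2 dimmer probe sets gave -0.009 and -0.096, and the call was lost with the mean of its probe sets (-0.17, limma adjusted p = 0.217) and without probe sets of shared suffix (-0.096, limma adjusted p = 0.789). Nuf2, a subunit of the NDC80 complex that grips microtubules, read 2926, 2813 and 2638 in KO, 2874, 3127 and 3087 in HET and 3371, 3208 and 3555 in WT (-0.27, SE 0.064, limma adjusted p = 0.0145). Nuf2 was the only one of the 9 called genes whose HET arrays all lay below its WT arrays, and its HET arrays overlapped the KO arrays. Its partners in the same complex had changes of -0.083 (Ndc80, limma adjusted p = 0.614) and 0.01 (Spc25, limma adjusted p = 0.938). Cenpe, a kinetochore motor, and Cenpf, a kinetochore protein, had -0.079 and -0.056 and did not pass.

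Genes of the later steps and of chromosome structure were not called. The chromosomal passenger complex corrects wrong attachments and acts in cytokinesis. Its kinase gene Aurkb read 2173, 2196 and 2245 in KO, 2141, 2404 and 2390 in HET and 2444, 2318 and 2400 in WT (-0.11, SE 0.063, limma adjusted p = 0.282). The other 3 genes of the complex had -0.15 (Cdca8), -0.13 (Birc5) and -0.075 (Incenp). Of 9 spindle and motor genes 7 had negative changes, the lowest that of Kif22, a chromosome arm motor, which read 1881, 1419 and 1605 in KO, 1598, 1967 and 1888 in HET and 1927, 1744 and 2085 in WT (-0.24, SE 0.11, limma adjusted p = 0.200). The groups of Kif22 overlapped and their spread was wide. Kif15, a spindle motor gene, had the highest change (0.29, SE 0.21, limma adjusted p = 0.434) but was dim: 75.7, 110 and 98.6 in KO, 108, 90.2 and 81.0 in HET and 83.4, 77.5 and 68.5 in WT, where the array medians were 42.9 to 48.0. Of the 5 cytokinesis genes, changes ran from -0.18 (Kif20a, a midzone motor) to -0.027 (Anln, which encodes the actin binder anillin).

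Both genes of chromosome structure had changes near 0. Mki67, a common proliferation marker, which encodes the Ki-67 antigen that coats mitotic chromosomes, read 8376, 8673 and 8484 in KO, 8384, 8403 and 8732 in HET and 8414, 8296 and 9212 in WT (-0.02, SE 0.049, limma adjusted p = 0.846). Top2a, the topoisomerase that untangles sister chromosomes, read 7260, 7517 and 7315 in KO, 7898, 7677 and 7567 in HET and 7570, 7256 and 7942 in WT (-0.043, SE 0.047, limma adjusted p = 0.630). The KO and WT arrays overlapped in both genes. The sign of both small changes turned under quantile normalization (0.033 for Mki67 and 0.0030 for Top2a), so no direction is given for either.

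**Figure D4:**
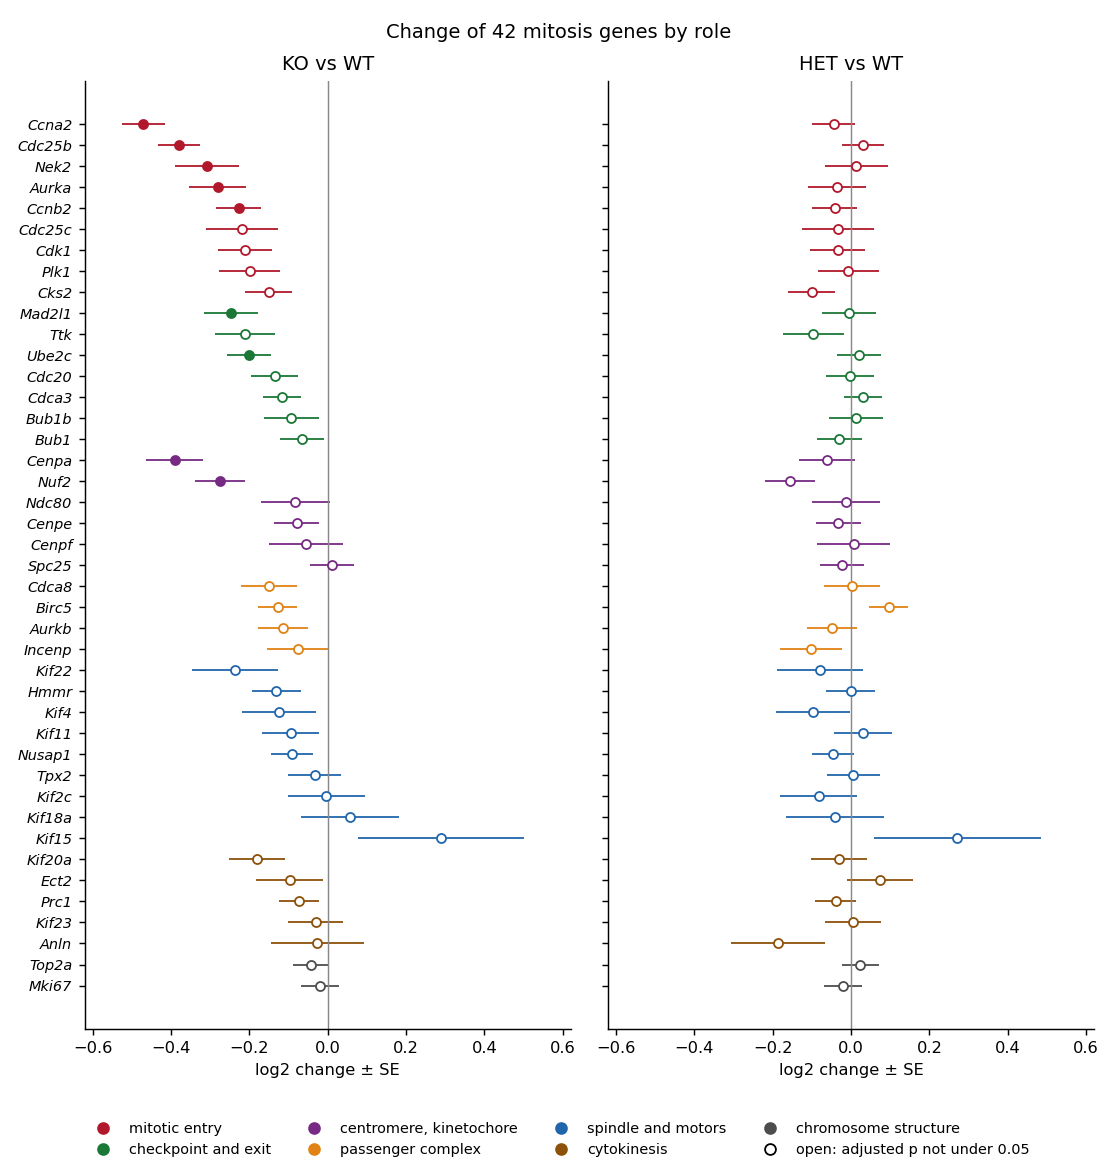
Log2 change (horizontal axis) with its standard error for 42 mitosis genes (rows, colored by role), for KO vs WT at left and HET vs WT at right; filled dots have a limma adjusted p under 0.05. All 9 filled dots are at left, from -0.47 (Ccna2) to -0.20 (Ube2c), and 7 of them belong to mitotic entry or to checkpoint and exit.

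The number of calls depended on single arrays and on the scaling. Leaving out KO replicate 2 gave 4 called genes, WT replicate 2 gave 4 and WT replicate 3 gave 3, and Ccna2, Cdc25b and Cenpa were called in all 9 such fits. Nuf2 lost its call without WT replicate 3 (limma adjusted p = 0.0623). Without KO replicate 2 or without WT replicate 2, Ccnb2, Aurka, Nek2, Ube2c and Mad2l1 were lost (limma adjusted p from 0.0717 to 0.120 and from 0.0755 to 0.123), and the same 5 without WT replicate 3 (up to 0.112). Aurka and Ube2c were also lost without KO replicate 1 (0.0718 and 0.124), Nek2 and Mad2l1 without KO replicate 3 (0.0621 and 0.0986), Nek2, Ube2c and Mad2l1 without WT replicate 1 (0.0534 to 0.0579) and Ube2c without HET replicate 3 (0.0502). Centring all arrays on their median signal, which was 47.4 to 48.0 on KO arrays and 42.9 to 45.0 on HET and WT arrays, gave 25 mitosis genes called lower, where 16.3% of all tested genes were, among them Cdk1, Plk1, Cdc25c, Aurkb, Birc5 and Kif22. That scaling moved the median change of all tested genes to -0.11, that of the mitosis genes to -0.24, and the calls over all genes to 1683 lower and 397 higher, from 602 and 630.

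HET vs WT asks what 1 floxed allele does. Of the 42 mitosis genes limma called 0, as under every alternative run. Of all tested genes 0.00968% were called (1 gene). Foxo1 itself did not pass (-0.61, SE 0.16, limma adjusted p = 0.919), although all its HET arrays lay below all its WT arrays. The count of 0 therefore cannot exclude small changes of the mitosis genes. At an unadjusted p under 0.05 there was 1, Nuf2 (-0.16, SE 0.064, limma adjusted p = 0.998), where 4.18% of all tested genes reached that threshold. The median change was -0.027, beside 0.0023 over all tested genes, and 28 of 42 changes were negative (49.2% of all tested genes). Every HET array lay below every WT array for 1 gene, Nuf2 (4.88% of all tested genes), and above for 1, Birc5 (4.95% of all tested genes). Of the 9 genes called in KO vs WT, 8 had HET means between 96.0% (Cenpa) and 102% (Cdc25b) of WT, and Nuf2 had 89.7%.

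KO vs HET asks what the loss of the second allele adds. It shares the KO arrays with KO vs WT, so its values are set beside those and are no independent support. Here 7 of 42 mitosis genes fell and 0 rose, against 4.43% and 4.56% of all tested genes (8.99% in either direction). At an unadjusted p under 0.05 in limma there were 13, all with negative changes, where 10.8% of all tested genes had a negative change at that threshold and 23.2% a change in either direction. Ccna2 fell by 0.43 (SE 0.055, limma adjusted p = 4.02e-04) and Cdc25b by 0.41 (SE 0.054, limma adjusted p = 4.43e-04). Cenpa (-0.33), Nek2 (-0.32), Mad2l1 (-0.24) and Ube2c (-0.22) also passed, with limma adjusted p of 0.0139, 0.0272, 0.0454 and 0.0279. The seventh was Birc5, the gene of survivin, the passenger subunit that also has a role in cell survival. It read 8248, 8274 and 8523 in KO, 10523, 9448 and 9325 in HET and 9081, 9073 and 9217 in WT, so that HET was the highest group and HET replicate 1 the highest array. The change of Birc5 was -0.22 (SE 0.050, limma adjusted p = 0.0153), against -0.13 in KO vs WT (limma adjusted p = 0.125). The median change of the 42 genes was -0.12 (0.01 over all tested genes), and 35 changes were negative (47.8% of all tested genes). Every KO array lay below every HET array for 16 genes (13.1% of all tested genes) and above for 0 (14.5%).

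The call of Cenpa in KO vs HET was lost with the mean of its probe sets (-0.098, limma adjusted p = 0.498) and turned positive without probe sets of shared suffix (0.26, limma adjusted p = 0.403). Under eBayes without trend Cenpa, Birc5, Nek2, Ube2c and Mad2l1 lost their calls (limma adjusted p of 0.0532, 0.0776, 0.0555, 0.0867 and 0.115). Mad2l1 also lost it under quantile normalization, without the filter and in a fit of KO and HET alone (0.0741, 0.0752 and 0.0786), Nek2 in that fit (0.0670) and Ube2c without the filter (0.0509). Ccna2 and Cdc25b were called under each of these settings that could test them (Cdc25b has no probe set without a shared suffix) and in all 9 fits that left out 1 array. With arrays centred on their medians, 15 mitosis genes were called lower in KO vs HET, where 10.4% of all tested genes were. Without KO replicate 2 or without HET replicate 1 there were 3 calls, with Birc5, Nek2, Ube2c and Mad2l1 lost (limma adjusted p from 0.0523 to 0.148 and from 0.0567 to 0.100). Without HET replicate 2 there were 4, with Cenpa, Nek2 and Mad2l1 lost (0.0638 to 0.168). Birc5 and Ube2c were lost without KO replicate 1 (0.0534 and 0.0973), Nek2 and Mad2l1 without KO replicate 3 (0.0647 and 0.121), Ube2c and Mad2l1 without HET replicate 3 (0.0803 and 0.0855), and Mad2l1 without WT replicate 1, 2 or 3 (0.0582, 0.0636 and 0.0555).

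**Figure D5:**
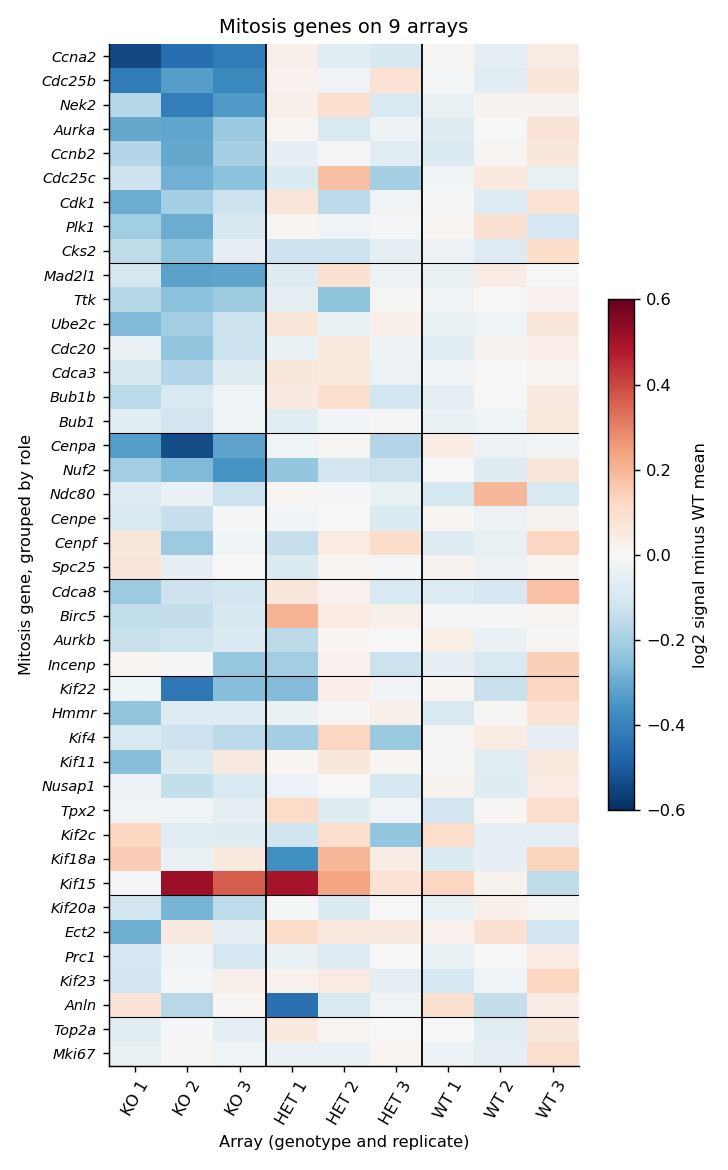
Log2 signal minus the gene's WT mean (color) for 42 mitosis genes (rows, grouped by role) on 9 arrays (columns: KO, HET and WT, 3 each). The KO columns are mostly blue, with medians of -0.11, -0.14 and -0.097, and Ccna2, in the top row, is among the deepest.

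Other mitosis genes, listed from general knowledge, were set beside these. Of 102 tested, 2 fell, 2 rose and 98 did not pass, against 5.83% lower and 6.1% higher among all tested genes, with a median change of -0.025. Kpna2, a nuclear import carrier, read 4790, 4484 and 4859 in KO, 5292, 5300 and 5381 in HET and 5469, 5723 and 5738 in WT (-0.26, SE 0.050, limma adjusted p = 0.0044). Ncapg, a condensin subunit gene, read 6592, 6324 and 6503 in KO, 7181, 7395 and 7133 in HET and 7557, 7270 and 8503 in WT (-0.26, SE 0.057, limma adjusted p = 0.0104). The KO arrays of both lay below all others. Kif24, a kinesin gene known for its role at centrioles and cilia, rose, with 1665, 1531 and 1346 in KO, 1182, 1211 and 1165 in HET and 1308, 1188 and 1160 in WT (0.31, SE 0.086, limma adjusted p = 0.0361). Ckap4, which despite its name encodes a membrane protein of the endoplasmic reticulum, also rose, with 820, 960 and 909 in KO, 381, 315 and 260 in HET and 399, 220 and 191 in WT (1.80, SE 0.23, limma adjusted p = 2.65e-04). By kind, 1 of 18 condensin and cohesin genes, 0 of 29 kinetochore and checkpoint genes, 0 of 27 spindle and centrosome genes and 1 of 28 mitotic regulators fell. With arrays centred on their medians, 20 of the 102 were called lower, where 16.3% of all tested genes were. Of 34 G1/S and replication genes, 2 fell (Pola1 and Dut) and 0 rose, a share near the 5.83% of all tested genes, with a median of -0.062. At an unadjusted p under 0.05 in limma there were 10 of 34, against 25.7% of all tested genes. Negative changes were as many as 27 of 34 in KO vs WT (47.7% of all tested genes) and 28 in HET vs WT (49.2%). Every KO array lay below every WT array for 9 (13.5%) and above for 3 (16.2%). No test between lists was made.

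A list of factors of late cell cycle transcription and related regulators had 25 tested genes. It includes the centromere gene Cenpu, also counted among the kinetochore genes, the CDK inhibitor gene Cdkn1a, and Mybl1, also a GC marker. Of the 25, 0 fell and 1 rose, against 5.83% and 6.1% of all tested genes, and 4 had an unadjusted p under 0.05 in limma, against 25.7%. Foxm1, the forkhead factor that activates G2/M genes, read 558, 674 and 624 in KO, 606, 681 and 561 in HET and 643, 707 and 622 in WT (-0.089, SE 0.11, limma adjusted p = 0.659). Mybl2, which encodes B-MYB, read 1380, 1186 and 1104 in KO, 1093, 999 and 1111 in HET and 1235, 1258 and 1196 in WT (-0.013, SE 0.089, limma adjusted p = 0.952). The KO and WT arrays overlapped in both. The gene that rose was Cdkn1a, which encodes the CDK inhibitor p21. It read 337, 296 and 557 in KO, 237, 142 and 192 in HET and 176, 166 and 191 in WT (1.09, SE 0.23, limma adjusted p = 0.0086), with every KO array above all others.

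Markers of some other cell states also changed in KO vs WT, where 5.83% of all tested genes fell and 6.1% rose. The summed signal of 6 dark zone markers, genes of the GC area where B cells divide, was 22975 to 24152 in KO, 36372 to 37887 in HET and 35191 to 38829 in WT, and 5 of the 6 fell in KO vs WT. Hmgb2 stands both in this list and among the mitotic regulators. The 8 light zone markers summed to 26993 to 29327 in KO, 27080 to 27648 in HET and 26059 to 28545 in WT, with 3 rises and 1 fall. The 9 plasma cell markers on the array summed to 33531 to 36304 in KO, 27239 to 29229 in HET and 26464 to 28060 in WT, and 6 of 8 tested rose, while Tnfrsf17 was below the array median on every array. The 8 marginal zone markers summed to 16870 to 19345 in KO, 11819 to 12489 in HET and 11775 to 12378 in WT, and 7 rose. The 11 myeloid markers summed to 1882 to 2357 in KO, 800 to 1872 in HET and 634 to 1380 in WT, 4 of 7 tested rose, and Itgam, Cd14, Fcgr1 and Mpo were below the median on all 9 arrays. T cell (6 genes), NK cell (2), erythroid (3) and stromal (4) markers summed to at most 445 on any array, and none of the 3 tested passed in KO vs WT. The part of any of these in the values of the mitosis genes was not tested.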

How the data were processed

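Per the submitters' processing notes, the authors processed the arrays with MAS5 (version not given in the sources used here) and deposited 1 linear intensity (signal) per probe set and array. Each array's 2% trimmed mean was 500. NuGEN amplification preceded labelling, per the labels' protocols. The number of arrays, 3 per genotype, limits the precision.

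Of 45101 probe sets, 64 were controls, and the platform annotation gave 34945 a single symbol, 932 several and 9160 none. Signals were analysed as log2(signal + 2.09), the offset being the 10th percentile of all signals, with no further normalization. Probe sets at or above the array median on at least 3 of 9 arrays were kept, and the brightest stood for its gene. The resulting 10331 genes entered 1 model of the 9 arrays (limma 3.58.1 in R 4.3.3, lmFit and eBayes with trend), with two-sided Benjamini-Hochberg adjustment over all of them. The model was tested on simulated data.

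The members and lists were chosen with earlier results of these data known. Array values are given for called members, the 4 uncalled with the largest change and a fixed core (Cdk1, Plk1, Aurka, Aurkb, Mki67, Top2a). They are also given for Foxo1, Foxm1, Mybl2 and the called genes of the other mitosis lists and the transcription factor list. Called genes of the G1/S and marker lists have no array values here. Replicates were numbered in the order of the samples in the series. The limma p-values set the difference between groups against the spread between arrays of a group. Alternatives are given in the closing section. The labels give no sex, litter or array batch. Some listed genes are not reported here. Promoter sequences are from RefSeq.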

Additional observations from a re-analysis of the deposited data

How the results depend on the processing

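Besides leaving out each array, 12 alternatives were run: quantile normalization, centring on the array median, offsets of 0 and 32, no filter, a filter on all 9 arrays, probe sets averaged per gene, no probe sets of shared suffix, eBayes without trend, robust eBayes, array weights and only the 2 groups compared. Without probe sets of shared suffix 33 mitosis genes were tested. Cdc25b, Nuf2, Birc5, Cdc25c, Aurkb, Ect2, Kif20a, Prc1 and Cdca3 could not be. No paired analysis was possible because no 2 genotypes share a number in the labels. The count of mitosis genes lower in KO vs WT was 9, and 25 with centring and 5 without trend; leaving out 1 array gave 3 to 9. In KO vs HET it was 7, and 15 with centring and 2 without trend; leaving out 1 array gave 3 to 6. Of the other mitosis lists 2 were lower, and 20 with centring, 1 without shared suffixes (92 genes tested) and 1 without trend. Leaving out 1 array gave 2 to 3. The counts of 0 higher in KO vs WT and 0 called in HET vs WT held in every alternative. The median change was -0.12 in KO vs WT, -0.24 with centring and -0.14 to -0.11 without 1 array. In KO vs HET it was -0.12, -0.21 with centring, -0.069 over the 33 genes tested without shared suffixes and -0.12 to -0.076 without 1 array. The sign turned for Cenpa in KO vs HET without shared suffixes (0.26, limma adjusted p = 0.403), for Mki67 in KO vs WT under quantile normalization (0.033; -0.049 to 0.027 without 1 array) and for Top2a in KO vs WT under quantile normalization (0.0030), with the mean of probe sets (0.091) and without shared suffixes (0.22). The cause of these changes was not tested.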

Other observations

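Within genotypes, over 861 pairs of the 42 genes, deviations from the group means were correlated with a mean r of 0.0998, beside 0.0075 over all tested genes; the 9 arrays leave 6 degrees of freedom, and genes of an array share its scaling. The within-group SD of the log2 signal had a median of 0.081 in these genes, from 0.044 (Bub1) to 0.21 (Kif15), and 0.13 over all tested genes. The 2 medians are not matched for brightness: 41 of the 42 genes had a mean signal of 500 or more, as had 6401 of 10331 tested genes. The SD among genes that bright was not computed.

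Probe sets of the same gene pointed the same way in some genes and not in others. Of 40 further probe sets that passed the filter, 30 had negative KO vs WT differences. Of 25 genes with several such probe sets, 15 had only negative values and 10 were mixed. The same shares over the probe sets of all genes were not computed. Nek2 gave -0.35 to -0.29 over 3 probe sets and Ccna2 -0.47 and -0.32 over 2. Cdc20, the activator of the anaphase-promoting complex, gave -0.14 with its brightest probe set (limma adjusted p = 0.180) and -0.25 and -0.29 with the other 2. It was called with the mean of its probe sets (limma adjusted p = 0.0349). It was also called without probe sets of shared suffix, where only that of -0.25 remained (limma adjusted p = 0.0335). Hmmr, a spindle protein gene, ranged from -0.33 to 0.17 over 5, and Incenp from -0.30 to 0.32 over 4, so their direction depends on the probe set.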
